A study of Mus musculus with 16 samples.

Results

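The sarcomere and cardiomyocyte contraction genes are a set of 34 genes, chosen by name, whose products build or regulate the contractile apparatus of heart muscle or are set apart as cardiomyocyte transcripts. Each symbol was matched through its Ensembl identifier in the GRCm38 gene models to 1 row of the count table, and all 34 were found among 55487 genes. All 34 also passed the filter of at least 10 counts in total over the libraries, which left 24971 genes to be tested. Their totals over all libraries ran from 14 counts for Ckm to 102632 for Tpm1.

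RNA came from slices of adult heart kept in culture, taken from male mice aged 8 weeks. WT slices were from C57Bl6/J mice, and Swhtr null slices from mice carrying the Swhtr3xpA/3xpA allele, a transcriptional stop signal inserted on both copies of the long non-coding RNA Swhtr and present in every cell of the animal. Untreated slices stayed for 14 days at 21% O2, whereas treated slices spent 7 days at 3% O2 and then 7 days at 21% O2, a culture model of cardiac injury and recovery. Each of the 4 groups (treated and untreated, WT and Swhtr null) held 4 libraries from 4 mice per genotype and 2 litters. The sources used here do not tie a library to a mouse, so p-values measure only the spread between these libraries, some of which share an animal.

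The sarcomere is the repeating contractile unit of striated muscle. Thick filaments of myosin slide along thin filaments of actin, troponin and tropomyosin, titin spans from the M-band to the Z-disc as a molecular spring, and the Z-disc anchors the thin filaments. Adult mouse ventricle relies on the alpha myosin heavy chain, whereas the beta chain, the atrial light chains and the natriuretic peptides mark fetal or atrial muscle and, in the ventricle, stress. In an intact heart many of these genes are among the most abundant messages.

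In these cultures most of them were not. Per kilobase of exon, only Tpm1 (mean over all libraries 44.4 CPM per kb, counts per 1000000 after TMM scaling, divided by exon length, rank 1014 of 24883 genes) and Cryab (36.7 CPM per kb, rank 1235) stood among the well expressed genes. Ankrd1 (7.02 CPM per kb), Des (3.50) and Nexn (3.13) came next, and the other 29 members lay between 0.00863 CPM per kb for Myh7 and 2.70 CPM per kb for Actc1. Myh6, the alpha myosin heavy chain, ranked 14625, and Ttn, the titin gene, 24449. Of the 34 members, 21 had at least 1 count in every library, while Nppa was counted in 4 libraries, Myh7, Smpx and Ckm in 5, Nppb in 6, and Ckmt2 and Xirp2 in 7. A library with 0 counts allows a level of up to 0.102 to 0.169 CPM (3 counts), and this covers counting error only. Several defining cardiomyocyte messages of the labelled tissue were thus at or near 0 in most libraries. The 12 fibroblast markers summed to 24480 to 34980 CPM and the 12 macrophage markers to 4178 to 13540 CPM, against 334 to 652 CPM for all 34 members. Fewer cardiomyocytes and less RNA per cardiomyocyte cannot be told apart in such bulk samples.

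Library depth was 17830351 to 29941903 counts, and 3 libraries stood apart by their members. On the mean log2 CPM of the 34 members (prior count 2), Swhtr null treated 2 was at 1.91, Swhtr null treated 3 at 1.09 and WT treated 4 at 0.95, whereas the other 13 libraries ran from -0.75 to 0.19. With the 5 members highest per kb set aside, the other 29 summed to 167 CPM in Swhtr null treated 2, 101 CPM in Swhtr null treated 3 and 78.4 CPM in WT treated 4, and to 18.6 to 45.1 CPM elsewhere. Only in Swhtr null treated 2 and WT treated 4 did all 34 members have a count. Swhtr null treated 2 held the highest level of 19 members, Swhtr null treated 3 of 5, Swhtr null treated 1 of 4 and WT treated 4 of 2. On the summed CPM of all 34 members, which Tpm1 dominates, the order was another, with Swhtr null treated 2 (652 CPM) followed by WT untreated 2 (515 CPM). Swhtr null treated 2 also had the lowest macrophage sum (4178 CPM, the other 15 libraries 7936 to 13540 CPM) and the highest fibroblast sum (34980 CPM). All 12 macrophage markers had counts in this library. Their part in the results was not tested.

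**Figure D1:**
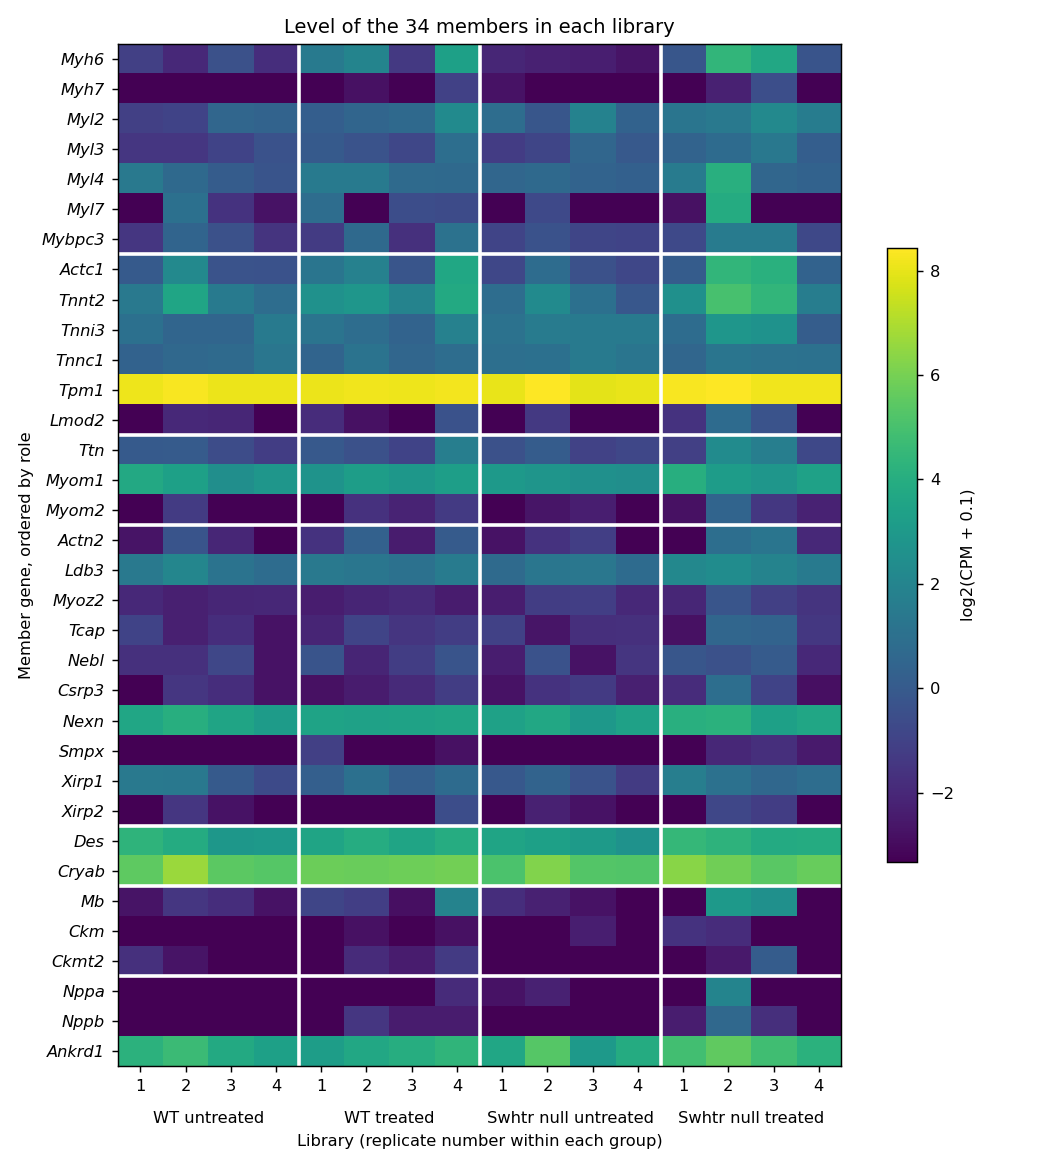
Level of each of the 34 members (rows, ordered by role, white lines between roles) in each of the 16 libraries (columns, 4 per group), as log2(CPM + 0.1) in color. Tpm1 and Cryab are bright throughout, and the columns Swhtr null treated 2, Swhtr null treated 3 and WT treated 4 are the brightest for most of the other rows.

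The promoters of 6 members are shown because these genes carry the results below. Myh6 and Actc1 were high in all 3 of the libraries named above, Myl7 and Nppa were highest in Swhtr null treated 2, Ldb3 was the member called by the main test, and Tpm1 was nearly even. Sequences are the 250 bases before the RefSeq start (GRCm38.p6), 5′ to 3′ in the direction of the gene. Capitals mark the core letters bound by NKX2-5 (AAGTG), the GATA core (GATAA), both on either strand, the CArG box bound by serum response factor (either strand), the MEF2 site (either strand) and the TATA box (TATAAA, gene strand). A match on the opposite strand stands in the letters of the strand shown, such as CACTT or TTATC. None of these motifs overlapped another in the windows shown.
Myh6 (chr14:54966608-54966857, minus strand): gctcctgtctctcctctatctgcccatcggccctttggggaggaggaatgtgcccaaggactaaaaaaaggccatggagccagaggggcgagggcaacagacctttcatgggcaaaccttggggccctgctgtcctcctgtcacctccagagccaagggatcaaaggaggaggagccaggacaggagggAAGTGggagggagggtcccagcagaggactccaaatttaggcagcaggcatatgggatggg
Actc1 (chr2:114052876-114053125, minus strand): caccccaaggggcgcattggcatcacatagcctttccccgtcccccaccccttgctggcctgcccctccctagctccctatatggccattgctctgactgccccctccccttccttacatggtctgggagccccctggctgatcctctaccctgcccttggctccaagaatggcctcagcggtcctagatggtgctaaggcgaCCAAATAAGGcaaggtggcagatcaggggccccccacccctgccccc
Myl7 (chr11:5898783-5899032, minus strand): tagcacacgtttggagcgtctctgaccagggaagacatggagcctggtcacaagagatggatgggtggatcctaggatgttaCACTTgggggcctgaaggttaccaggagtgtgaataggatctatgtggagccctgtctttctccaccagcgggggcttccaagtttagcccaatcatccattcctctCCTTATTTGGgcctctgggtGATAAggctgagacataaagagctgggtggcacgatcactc
Nppa (chr4:148000472-148000721, plus strand): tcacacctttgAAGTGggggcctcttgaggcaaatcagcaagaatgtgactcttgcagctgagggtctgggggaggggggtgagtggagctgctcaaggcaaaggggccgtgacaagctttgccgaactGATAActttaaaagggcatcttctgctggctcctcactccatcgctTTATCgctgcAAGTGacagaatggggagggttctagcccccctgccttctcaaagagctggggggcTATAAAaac
Ldb3 (chr14:34588682-34588931, minus strand): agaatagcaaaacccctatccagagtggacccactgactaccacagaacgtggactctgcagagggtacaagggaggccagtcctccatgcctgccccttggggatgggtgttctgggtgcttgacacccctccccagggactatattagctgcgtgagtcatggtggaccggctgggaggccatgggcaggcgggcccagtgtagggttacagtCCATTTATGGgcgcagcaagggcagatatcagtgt
Tpm1 (chr9:67049214-67049463, minus strand): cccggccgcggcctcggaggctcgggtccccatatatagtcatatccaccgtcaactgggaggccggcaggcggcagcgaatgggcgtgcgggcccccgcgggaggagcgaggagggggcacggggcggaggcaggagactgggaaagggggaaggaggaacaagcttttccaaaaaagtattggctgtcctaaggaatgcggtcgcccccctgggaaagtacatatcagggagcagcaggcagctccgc
For Ldb3 the table holds a second, overlapping start with the same CArG box. RefSeq starts were at hand for 29 of the 34 members. The M-CAT element (CATTCC, either strand, not capitalised) lay in 10 of these 29 (34.5%), against 12.6% of all 32851 RefSeq starts. A CArG box lay in the window of 6 of these 29 (20.7%), against 1.47%, and a MEF2 site in 4 (13.8%, against 1.69%). The NKX2-5 core lay in 13 (44.8%, against 40.7%) and the GATA core in 13 (44.8%, against 22.6%). Some members have several starts, so shares per member and per start are not counted alike. These are letter matches only.

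In Swhtr null slices, 33 of the 34 members had a fitted level above the untreated one after treatment, as did 51.6% of all genes, but only Ldb3 rose past the test. Ldb3 encodes a Z-disc protein that ties alpha-actinin to the contractile lattice. The call rule was an adjusted p under 0.05 over all genes with an absolute log2 fold change over 0.58 (1.5-fold) in edgeR's quasi-likelihood test, by which 0.621% of all genes were called in this comparison and 0.316% were called higher. DESeq2 called 8 members higher (Ldb3, Myh6, Des, Actc1, Tnnt2, Mb, Xirp1 and Myl4) against 0.985% of all genes called higher and 1.86% called in either direction, and gave no adjusted p for 14 members. At an unadjusted p under 0.05 in edgeR, 20 members were higher and none was lower, against 8.69% and 7.84% of all genes. With 1 library left out this count ran from 11 (without Swhtr null untreated 4) to 26, and was 12 without Swhtr null untreated 1 or Swhtr null treated 2. Treated and untreated libraries did not overlap for 4 members (Ldb3, Myh6, Xirp1 and Des), all higher, against 3.54% of all genes higher and 3.78% lower. The median log2 fold change of the members was 1.82, or 1.79 with the 3 members whose untreated libraries were all at 0 set at their lower bound, and that of all genes was 0.01. With limma and quality weights, 31 of the 34 members were higher, with a median of 0.85. Smpx, Ckm and Nppa, all among the 33, reached the filter of 10 counts only through their Swhtr null treated libraries. Their direction in this comparison therefore carries no weight. With edgeR's filter by expression, which left 21 members, 20 were higher, with a median of 1.09. In a fit that pairs libraries by replicate number, with the pairs taken from the data, 6 members were called (Actn2, Ldb3, Myh6, Myl3, Nppb and Xirp1). Without Swhtr null treated 2 and 3, an alternative chosen after seeing the data, 0 members were called by edgeR, 18 of the 26 members with counts in both groups were higher, with a median of 0.50. Of the 32 still tested, 5 passed an unadjusted p of 0.05 upward and 1 downward. Without Swhtr null treated 2 alone the median over the 32 tested was 1.20.

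In WT slices, 25 of the 34 members had a fitted level above the untreated one, against 51.9% of all genes, and none passed the test. Neither edgeR nor DESeq2 called a member, and edgeR called 0% of all genes, DESeq2 0.036% (0.012% higher). Treated and untreated libraries overlapped for each of the 34 members, while 1.92% of all genes were higher and 1.75% lower without overlap. In edgeR, 5 members were higher (Myh6, Myh7, Myl2, Myl3 and Smpx) with an unadjusted p under 0.05 and none was lower, against 2.62% and 2.2% of all genes. This count was 1 without WT treated 4 or WT untreated 1, 2 without WT untreated 2, and 3 without WT untreated 3 or 4. The median log2 fold change was 0.84, or 0.71 with 4 members at their lower bound and Ckm left out, and it was 0.22 without WT treated 4 and 0.53 without WT untreated 4. With limma and quality weights, 27 of the 34 members were higher, with a median of 0.51. With edgeR's filter by expression, 13 of the 21 members left were higher, with a median of 0.39. The tests of both genotypes used 1 shared estimate of the spread but no shared libraries.

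**Figure D2:**
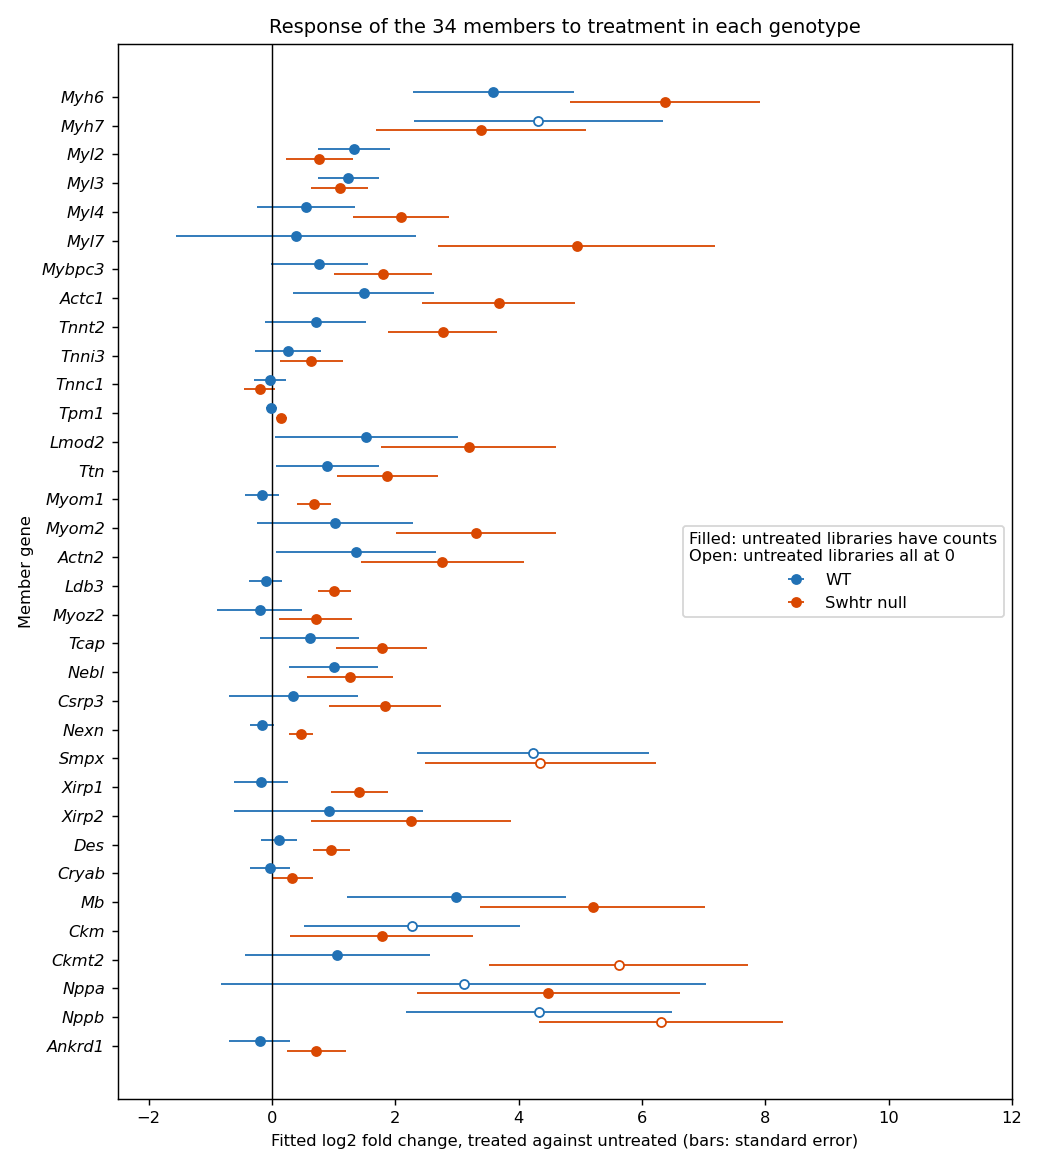
Fitted response to treatment on the log2 scale (horizontal axis, bars show the standard error, SE) for the 34 members (vertical axis) in WT (blue) and Swhtr null (orange) slices, 4 libraries in each group. Open points mark members whose untreated libraries were all at 0, for which the fitted value depends on the prior count. Orange points lie right of 0 except for Tnnc1, and the bars are shortest for Tpm1, Nexn, Tnnc1, Ldb3, Myom1, Des and Cryab. Myh6 and Actc1, with counts in every library, have long bars.

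Among the 7 thick filament genes, all were higher after treatment in both genotypes. None was called by edgeR without pairs, and Myh6 and Myl3 were called in Swhtr null slices with the replicate numbers as pairs. Myh6 had the widest range. In WT untreated slices Myh6 was at 0.367, 0.158, 0.654 and 0.193 CPM in libraries 1 to 4, and in WT treated slices at 2.71, 3.82, 0.292 and 10.1 CPM. Its levels were 0.141, 0.113, 0.0998 and 0.0513 CPM in Swhtr null untreated and 0.778, 21.0, 13.0 and 0.716 CPM in Swhtr null treated slices. The Swhtr null values did not overlap between treatments, yet 2 of the treated libraries lay below 1 CPM, and WT treated 3 lay within the WT untreated range. The fitted log2 fold change was 6.38 in Swhtr null (standard error, SE, 1.54, edgeR adjusted p = 0.0556, DESeq2 adjusted p = 7.31e-06) and 3.59 in WT (SE 1.30, edgeR adjusted p = 0.9994). In other edgeR fits of the Swhtr null response of Myh6 the adjusted p was 0.0350 with pairs, 0.0263 with the filter by expression and 0.0162 without the robust option, and it was 0.343 without Swhtr null treated 2 and 3.

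Myh7, the beta myosin heavy chain, was at 0 in all WT untreated libraries and in 3 of the Swhtr null untreated ones, the fourth holding 1 count. After treatment it was at 0.379 CPM in WT treated 4, 0.611 CPM in Swhtr null treated 3 and 0.109 CPM in Swhtr null treated 2, and was at 0 in 4 of the other treated libraries. Against the WT floor of 3 counts the pooled Myh7 level in WT treated slices was at least 2.89-fold higher (edgeR adjusted p = 0.9994). Of its 10 counts in WT treated slices, 9 came from WT treated 4. Myh6 and Myh7 are neighbours with near-identical stretches, and reads could be split between them.

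Myl2 and Myl3, the ventricular regulatory and essential light chains, varied less. Myl2 was at 0.367, 0.420, 1.36 and 1.25 CPM in WT untreated, 1.04, 1.32, 1.503 and 4.76 CPM in WT treated, 1.74, 0.787, 3.54 and 1.18 CPM in Swhtr null untreated and 2.24, 2.61, 4.55 and 2.98 CPM in Swhtr null treated slices. The groups overlapped in both genotypes (log2 fold change 1.33 in WT and 0.77 in Swhtr null, SEs 0.59 and 0.54). Myl3 was at 0.405 ± 0.194 and 0.969 ± 0.590 CPM (SD, n = 4) in untreated and treated WT slices. In Swhtr null slices it was at 0.330, 0.450, 1.35 and 0.872 CPM untreated and at 1.24, 1.63, 2.51 and 1.03 CPM treated (log2 fold changes 1.24 and 1.10, edgeR adjusted p = 0.9994 and 0.228). With the replicate numbers as pairs, Myl3 was called in Swhtr null slices (edgeR adjusted p = 0.0445).

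The atrial light chains were highest in Swhtr null treated 2. Myl4, the atrial and fetal essential light chain, was at 16.95 CPM there and at 2.84, 1.36 and 1.19 CPM in the other Swhtr null treated libraries. All other libraries had 0.722 to 2.80 CPM of Myl4, so that Swhtr null treated slices overlapped the untreated ones (1.37, 1.52, 1.25 and 1.13 CPM). Its log2 fold change was 2.09 (SE 0.78, edgeR adjusted p = 0.201, DESeq2 adjusted p = 0.0467). Myl7, the atrial regulatory light chain, was at 14.8 CPM in Swhtr null treated 2, at 0.0458 CPM in Swhtr null treated 1 and at 0 in Swhtr null treated 3 and 4. Its next highest levels were 1.94 CPM in WT untreated 2 and 1.76 CPM in WT treated 1. Mybpc3, the cardiac myosin-binding protein C, was at 2.903 and 2.884 CPM in Swhtr null treated 2 and 3 and at 2.06 CPM in WT treated 4, and at 0.209 to 1.54 CPM elsewhere.

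**Figure D3:**
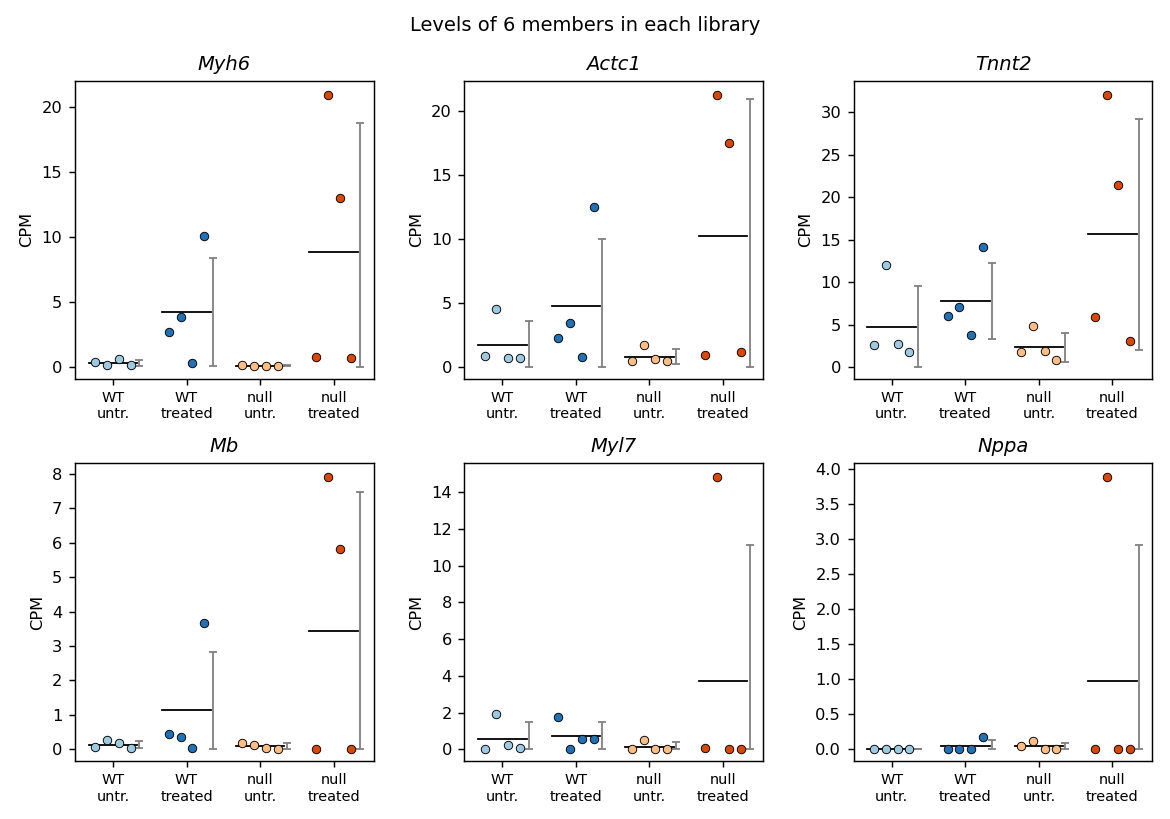
CPM (vertical axis, linear) of Myh6, Actc1, Tnnt2, Mb, Myl7 and Nppa in the 4 libraries of each group (points, libraries 1 to 4 from left to right), with the mean (black line) and SD (grey bar, drawn down to 0 at most). For Myh6, Actc1, Tnnt2 and Mb, Swhtr null treated 2 and 3 lie highest with WT treated 4, and for Myl7 and Nppa a single point, Swhtr null treated 2, stands above all others.

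Of the 6 thin filament genes, 5 were higher in treated Swhtr null slices and 4 in treated WT slices, with no call by edgeR. Actc1, the cardiac alpha-actin, was at 0.892, 4.57, 0.701 and 0.674 CPM in WT untreated and at 2.26, 3.43, 0.752 and 12.5 CPM in WT treated slices. In Swhtr null slices it was at 0.471, 1.69, 0.649 and 0.462 CPM without and 0.962, 21.3, 17.5 and 1.19 CPM with treatment. The untreated library 2 of each genotype exceeded the lower treated libraries, so the groups overlapped. The log2 fold change was 3.68 in Swhtr null (SE 1.24, edgeR adjusted p = 0.160, DESeq2 adjusted p = 0.0107) and 1.49 in WT slices (SE 1.14, edgeR adjusted p = 0.9994). Actin genes share long stretches of sequence, and Acta2 (smooth muscle alpha-actin) ran from 134 to 372 CPM. Its highest library was Swhtr null treated 1, in which Actc1 was at 0.962 CPM, and Acta1 (skeletal alpha-actin) stayed between 0.271 and 0.698 CPM throughout.

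Tnnt2 encodes cardiac troponin T, which ties the troponin complex to tropomyosin. Its levels were 2.62, 11.98, 2.71 and 1.73 CPM in WT untreated and 6.01, 7.07, 3.76 and 14.1 CPM in WT treated slices. In Swhtr null slices Tnnt2 was at 1.74, 4.78, 1.95 and 0.821 CPM untreated and at 5.86, 32.1, 21.5 and 3.06 CPM treated. The same 3 treated libraries were highest, and WT untreated 2 came close to WT treated 4 (log2 fold change 2.77 in Swhtr null, SE 0.88, adjusted p = 0.135 by edgeR and 0.0127 by DESeq2, and 0.71 in WT, SE 0.82). Tnni3, the cardiac inhibitory troponin, was at 7.04 and 6.28 CPM in Swhtr null treated 2 and 3 and at 0.995 to 3.50 CPM elsewhere. Tnnc1, the calcium-binding troponin shared by heart and slow muscle, was nearly level, with 1.21 to 2.79 CPM over all 16 libraries and a log2 fold change of -0.20 (SE 0.25) in Swhtr null slices. Tnnc1 was the 1 member with a fitted value below the untreated level there. Lmod2, which elongates thin filaments, was highest in Swhtr null treated 2 (1.60 CPM) and at 0 in 7 libraries.

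Tpm1, alpha-tropomyosin, which is also made by fibroblasts and smooth muscle, had 246 to 343 CPM in all libraries. By group it was at 284 ± 19.8 CPM in WT untreated, 283 ± 11.2 CPM in WT treated, 278 ± 44.2 CPM in Swhtr null untreated and 308 ± 26.6 CPM in Swhtr null treated slices (SD, n = 4). Its highest libraries were Swhtr null untreated 2 and treated 2, at 343 CPM each. The responses were -0.01 in WT (SE 0.09) and 0.15 in Swhtr null slices (SE 0.09) on the log2 scale, neither past the test.

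Titin and the M-band proteins, which bundle the myosin tails, split between the patterns. Ttn was at 3.16 CPM in WT treated 4, 4.94 CPM in Swhtr null treated 2 and 3.16 CPM in Swhtr null treated 3, and at 0.337 to 0.956 CPM in the other 13 libraries. Its log2 fold change in Swhtr null slices was 1.87 (SE 0.82, edgeR adjusted p = 0.275), and -0.54 without Swhtr null treated 2 and 3. Myom1 was counted evenly, at 5.49 to 16.3 CPM, and was highest in Swhtr null treated 1. Its group means were 9.04 ± 3.53, 8.07 ± 1.52, 6.62 ± 1.16 and 10.7 ± 3.99 CPM (SD, n = 4) in untreated and treated WT and then in untreated and treated Swhtr null slices, in this order. Myom2 peaked at 1.27 CPM in Swhtr null treated 2 and was at 0 in 6 libraries. All 3 genes were higher at an unadjusted p under 0.05 in treated Swhtr null slices, and none was called.

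All 10 genes of the Z-disc and costamere, the lateral anchor of the myofibril at the membrane, were higher in treated Swhtr null slices, 1 of them called. In WT slices 6 of these 10 were higher. Ldb3, the called gene, was at 1.55, 2.36, 2.44 and 1.64 CPM in Swhtr null untreated and at 4.40, 5.23, 3.77 and 2.75 CPM in Swhtr null treated slices, without overlap, as were 3.54% of all genes in this direction. All 4 treated libraries lay above the untreated ones, not only the 2 that stood apart (log2 fold change 1.01, SE 0.27, adjusted p = 0.0492 by edgeR and 0.00885 by DESeq2). In WT slices Ldb3 was at 2.57, 4.15, 2.10 and 1.69 CPM untreated and at 2.57, 2.33, 2.004 and 2.87 CPM treated, and the groups overlapped (log2 fold change -0.10, SE 0.27). The value was 0.83 (edgeR adjusted p = 0.202) without Swhtr null treated 2 and 3, and the call was lost in 12 of the 16 fits that leave out 1 library. It was kept without WT untreated 2, WT untreated 4, Swhtr null untreated 2 or Swhtr null treated 4.

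Xirp1, an actin-binding repeat protein of the intercalated disc, was at 0.847, 1.24, 0.698 and 0.308 CPM in Swhtr null untreated and at 3.16, 1.96, 1.43 and 1.75 CPM in Swhtr null treated slices, again without overlap. Its log2 fold change was 1.42 (SE 0.46, adjusted p = 0.122 by edgeR and 0.0377 by DESeq2, and 0.0209 from edgeR with the replicate numbers as pairs). In WT slices Xirp1 was at 2.57, 2.52, 0.888 and 0.530 CPM untreated and at 1.08, 1.93, 1.09 and 1.60 CPM treated, so the treated values lay inside the untreated range. Actn2, sarcomeric alpha-actinin, was at 0.0525, 0.735, 0.140 and 0 CPM in WT untreated, 0.226, 1.14, 0.0835 and 0.927 CPM in WT treated, 0.0471, 0.225, 0.349 and 0 CPM in Swhtr null untreated and 0, 1.78, 2.27 and 0.159 CPM in Swhtr null treated slices. Its Swhtr null response of 2.76 on the log2 scale (SE 1.32, edgeR adjusted p = 0.317) was called with pairs (2.61, adjusted p = 0.0387), and was -0.84 without Swhtr null treated 2 and 3. Smpx, a small costameric protein, was at 0 in all untreated libraries, and 21 counts in all came from 5 treated ones, the most in WT treated 1 (0.361 CPM). Against a floor of 3 counts over the group its pooled level was at least 2.6-fold higher in treated WT slices (edgeR adjusted p = 0.9994). In treated Swhtr null slices it was at least 3.02-fold higher (edgeR adjusted p = 0.259). Of the 9 counts of Smpx in WT treated slices, 8 came from WT treated 1.

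The other Z-disc members were scarce except for Nexn, an actin-binding protein also found outside the heart (7.68 to 18.1 CPM over all libraries). Tcap, the titin cap, was at 1.38 and 1.22 CPM in Swhtr null treated 2 and 3 and at 0.0458 to 0.439 CPM elsewhere. Csrp3, a mechanosensing LIM protein, was at 1.78 CPM in Swhtr null treated 2 and at 0 to 0.407 CPM elsewhere. Myoz2, a calcineurin-binding Z-disc protein, was highest in the same library at 0.762 CPM, with 0.0843 to 0.373 CPM in the others. Nebl (nebulette) was at 0.0482 to 0.950 CPM, and Xirp2, a relative of Xirp1, at up to 0.590 CPM in WT treated 4 with 0 in 9 libraries.

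Des, the muscle intermediate filament desmin, which smooth muscle also makes, was at 19.7, 14.8, 7.38 and 7.80 CPM in WT untreated and 11.4, 15.5, 11.5 and 15.3 CPM in WT treated slices. Its levels were 11.5, 10.1, 8.33 and 6.31 CPM in Swhtr null untreated and 22.4, 19.0, 14.2 and 15.1 CPM in Swhtr null treated slices. The Swhtr null groups did not overlap and the WT groups did (log2 fold change 0.96, SE 0.30, adjusted p = 0.122 by edgeR and 0.0109 by DESeq2, and 0.12 in WT, SE 0.29). Cryab, a small heat shock protein that protects desmin, was at 45.4, 101, 43.5 and 39.6 CPM in WT untreated, 55.5, 53.1, 56.2 and 60.0 CPM in WT treated, 33.9, 74.0, 38.8 and 37.0 CPM in Swhtr null untreated and 79.9, 58.0, 42.2 and 50.9 CPM in Swhtr null treated slices. Library 2 was the highest of the untreated slices in both genotypes, and the groups overlapped (log2 fold change 0.33, SE 0.33, in Swhtr null slices). Cryab shares 17% of its exon bases with Hspb2 on the other strand.

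Des, Myom1 and Xirp1 were highest in Swhtr null treated 1, and Ldb3 was second highest there, a library in which Myh6, Actc1 and Mb were low. Of 18 smooth muscle and myofibroblast genes (Des among them), 12 were highest in the same library, and the other 6 (Smtn, Myh10, Tpm4, Actn1, Myl6 and Myh9) in 5 other libraries. Smtn, the smooth muscle protein smoothelin, was at 113 CPM in Swhtr null treated 1 and at 166 CPM in Swhtr null untreated 3. Myh11, the smooth muscle myosin heavy chain, was at 63.6 CPM in Swhtr null treated 1 and at 24.7, 25.1 and 39.0 CPM in the other Swhtr null treated libraries, against 7.74 to 38.9 CPM in the 12 remaining ones. Lmod1, the smooth muscle leiomodin, was at 19.5 CPM in Swhtr null treated 1 and at 2.62 to 10.2 CPM in the other 15 libraries. Of the 18 genes, 15 were higher in treated Swhtr null slices, with a median log2 fold change of 0.49, and 0 were called by edgeR. At an unadjusted p under 0.05, 6 were higher, against 8.69% of all genes, and 4 were higher without overlap, against 3.54%. DESeq2 called 2 higher (Lmod1 and Des), against 0.985% of all genes. In WT slices 5 of the 18 were higher, none was called by edgeR or DESeq2, and 0 had an unadjusted p under 0.05 (median -0.04). The summed level of the 18 genes was 4258 to 4621 CPM in Swhtr null treated and 3838 to 4478 CPM in Swhtr null untreated slices. Its part in the responses of Des, Ldb3, Xirp1 and Myom1 was not tested.

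Markers of other cell types were fitted in the same way. In treated Swhtr null slices all 12 macrophage markers had a lower fitted level (median -0.55 on the log2 scale, 5 at an unadjusted p under 0.05, 0 called by edgeR and 2 by DESeq2), and they summed to 4178 to 10580 CPM, against 8343 to 13540 CPM in Swhtr null untreated slices. The macrophage sum was 7936, 4178, 10580 and 8560 CPM in Swhtr null treated 1 to 4, lowest in library 2 and highest in library 3. Of the 12 fibroblast markers 11 were higher (median 0.33), and Dpt, the matrix protein dermatopontin, rose (0.97, SE 0.23, edgeR adjusted p = 0.0486). The 6 pericyte markers were all higher with none called (median 0.41, summed level 948.7 to 1195 CPM treated and 631.9 to 810.7 CPM untreated). Of the 10 endothelial markers 9 were higher with none called (median 0.25, summed level 1920 to 2738 CPM treated and 1843 to 2265 CPM untreated). Among 8 epicardial markers 4 were higher, and Krt19, an epithelial keratin, fell (-2.25, SE 0.36, edgeR adjusted p = 0.00397). In WT slices the medians were -0.11 for macrophage, 0.03 for fibroblast, 0.08 for pericyte, 0.02 for endothelial and -0.32 for epicardial markers. Without overlap, 3 of the 12 macrophage markers were lower in treated WT slices, against 1.75% of all genes. In Swhtr null slices this was 1 of 12, against 3.78%. In WT slices edgeR called none of these markers, and DESeq2 called 1 epicardial marker lower. The part of these cells in the members' values was not tested.

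**Figure D4:**
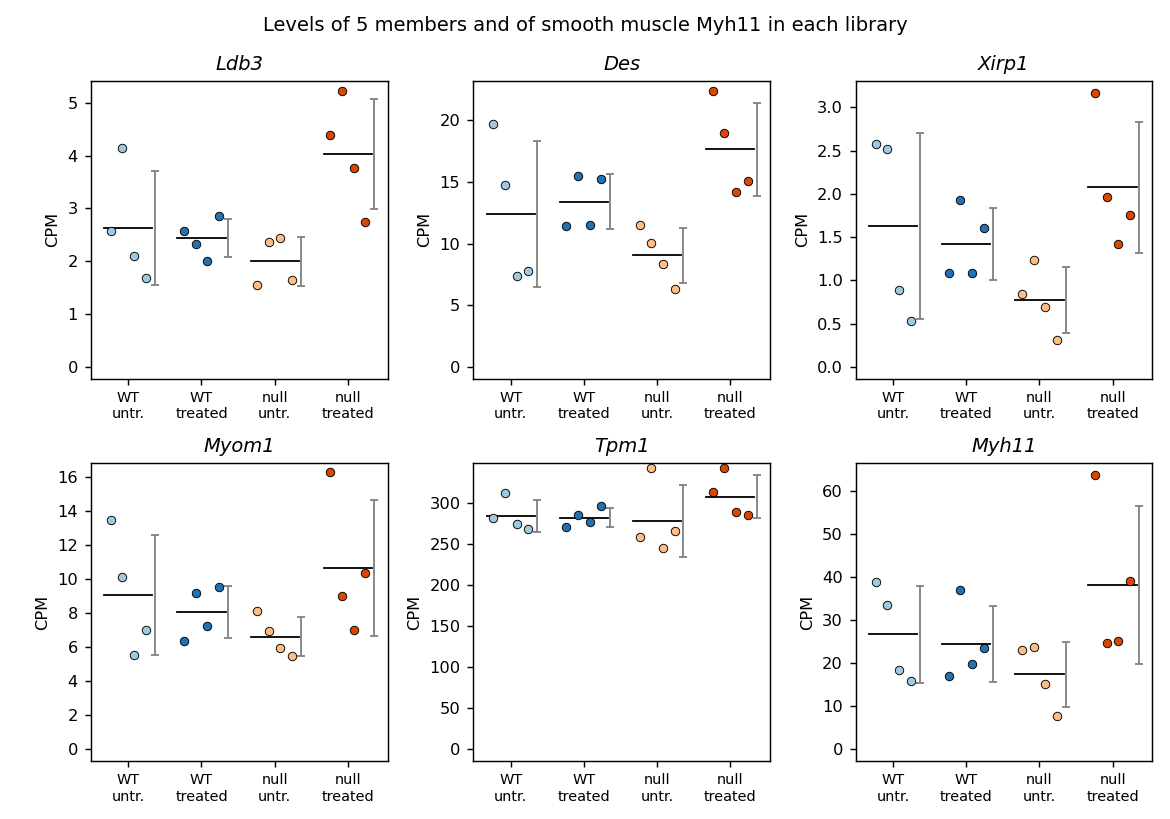
CPM (vertical axis, linear from 0) of Ldb3, Des, Xirp1, Myom1, Tpm1 and the smooth muscle gene Myh11 in the 4 libraries of each group (points, libraries 1 to 4 from left to right), with the mean (black line) and SD (grey bar). All 4 Swhtr null treated points of Ldb3, Des and Xirp1 lie above the Swhtr null untreated ones, and Swhtr null treated 1 is the highest point for Des, Xirp1, Myom1 and Myh11.

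Among the genes of oxygen storage and the phosphocreatine shuttle, Mb, the oxygen-binding myoglobin, was above 1 CPM in the 3 libraries that stood apart and in no other. It was at 0.0525, 0.263, 0.187 and 0.0482 CPM in WT untreated and at 0.452, 0.351, 0.0418 and 3.67 CPM in WT treated slices. In Swhtr null slices Mb was at 0.188, 0.113, 0.0499 and 0 CPM untreated and at 0, 7.91, 5.80 and 0 CPM treated, so that 2 treated libraries lay at the bottom and 2 at the top of the range. The fitted log2 fold change of 5.20 (SE 1.82, adjusted p = 0.177 by edgeR and 0.0330 by DESeq2) rests on Swhtr null treated 2 and 3, since the other treated libraries held 0 counts and the 4 untreated ones 7 in all. Antisense transcript Gm49540 shares 27.6% of the exon bases of Mb, and whether counting used strand is not given in the sources used here. Ckm, the muscle creatine kinase, had 14 counts over all libraries. Ckmt2, its mitochondrial counterpart, was at 0 in all Swhtr null untreated libraries and at 0, 0.0726, 0.984 and 0 CPM in the treated ones. Its pooled level was at least 7.81-fold higher against the floor (edgeR adjusted p = 0.196), with 29 of the 31 treated counts from Swhtr null treated 3.

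The natriuretic peptides, secreted by atrial and by stressed ventricular muscle, were nearly silent. Nppa was at 3.88 CPM in Swhtr null treated 2, at 0.169 CPM (4 counts) in WT treated 4, at 0.113 and 0.0471 CPM in Swhtr null untreated 2 and 1, and at 0 in the other 12 libraries. Its value for Swhtr null treated slices is therefore that of 1 library (log2 fold change 4.48, SE 2.13, edgeR adjusted p = 0.326). Most of the exon bases of Nppa (61.5%) lie opposite antisense transcript Gm13054. Nppb was at 0 in all untreated libraries. It was at 0.0916, 1.45, 0.204 and 0 CPM in Swhtr null treated and at 0, 0.264, 0.0835 and 0.0843 CPM in WT treated slices. Its pooled levels were at least 12.1-fold and 2.89-fold higher against the floor (edgeR adjusted p = 0.138 and 0.9994). In Swhtr null treated slices, 40 of the 48 counts of Nppb came from library 2. Ankrd1, a stretch-induced titin-binding repressor that other cells of the heart also express, was at 18.4, 25.5, 14.1 and 9.97 CPM in WT untreated, 9.08, 13.0, 16.1 and 20.7 CPM in WT treated, 12.2, 39.8, 7.83 and 15.0 CPM in Swhtr null untreated and 28.7, 47.2, 28.2 and 18.2 CPM in Swhtr null treated slices. Its groups overlapped, and its Swhtr null response was 0.72 (SE 0.48) on the log2 scale.

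Of 10 conduction and atrial markers, 9 had counts, and 6 of these 9 were highest in Swhtr null treated 2 (Myl4, Myl7, Nppa, Sln, Dkk3 and Cacna2d2). Sln, which encodes the atrial calcium pump regulator sarcolipin, was at 2.32 CPM in Swhtr null treated 2 and at 0 in the other 15 libraries. Dkk3, which is strong in atrial muscle, was at 112 CPM there, at 64.7 CPM in Swhtr null untreated 2 and at 10.1 to 35.4 CPM elsewhere. The others were highest elsewhere. Kcna5, an atrial potassium channel, was at 12.4 CPM in Swhtr null treated 2 and at 17.5 CPM in Swhtr null treated 3. Gja5, the atrial and conduction connexin, was at 8.60 CPM in Swhtr null treated 2 and at 38.5 CPM in WT untreated 1, and Hcn4, the pacemaker channel, was highest in WT treated 1 (0.813 CPM). Bmp10, an atrial growth factor, had 0 counts in every library and was not tested. Swhtr null treated 3, with 13.0 CPM of Myh6 and 17.5 CPM of Actc1, had 0 counts of Myl7, Nppa and Sln. Its Myl2 was 4.55 CPM, but Myl2 was also at 3.54 CPM in Swhtr null untreated 3, where Myh6 was at 0.0998 CPM. Of the 9 markers tested, 8 were higher in treated Swhtr null slices (median log2 fold change 2.09) and none was called by edgeR, with 1 called by DESeq2. In treated WT slices 7 of the 9 were higher (median 0.49), with none called by either tool. Of 6 ventricular markers tested (the members Myl2, Myl3 and Myh7 among them), 5 were higher in treated Swhtr null and 3 in treated WT slices. None was called by either tool. By the study's methods the apex and base were cut away before slicing, and whether a given slice held atrial muscle is not stated there.

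Of 32 other cardiac sarcomere and myofibril genes, 31 were matched and 30 tested. In treated Swhtr null slices 25 were higher, 0 were called by edgeR or DESeq2, and 9 passed an unadjusted p of 0.05, all of them higher, with a median log2 fold change of 0.39. In WT slices 13 were higher, 0 called by either tool, and 1 passed an unadjusted p of 0.05, being higher (median -0.06). The most abundant per kb was Bag3, a co-chaperone that clears damaged Z-disc proteins, at 83.1 ± 6.13 CPM before and 97.4 ± 3.04 CPM after treatment of Swhtr null slices (SD, n = 4). Its Swhtr null difference of 0.23 (edgeR adjusted p = 0.0486) was below the fold threshold. In WT slices Bag3 was at 85.3 ± 3.49 CPM before and 96.4 ± 3.61 CPM after treatment (SD, n = 4). Bag3 was higher without overlap in both genotypes, as were 1.92% of all genes in WT and 3.54% in Swhtr null slices. Pdlim7 and Fhl2, LIM proteins of many contractile cells, followed, with Swhtr null responses of 0.20 and 0.01 on the log2 scale. Among 14 other cardiomyocyte energy genes, 7 were higher and 7 lower in treated Swhtr null slices with a median of -0.03, and their most abundant member per kb, the ATP synthase gene Atp5a1, was at 387 ± 11.1 and 358 ± 25.2 CPM (SD, n = 4). Of the 15 tested fetal and skeletal isoforms, 9 were higher in treated slices of each genotype, 0 were called by edgeR or DESeq2, and the medians were 0.18 in Swhtr null and 0.08 in WT slices, with 4 (2 in each direction) and 0 past an unadjusted p of 0.05.

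The genotypes were compared within each treatment, with the same libraries as above. In untreated slices 12 of the 34 members had a higher and 20 a lower fitted level in Swhtr null than in WT (49.8% of all genes were higher), while Smpx and Nppb had 0 counts in both groups. Of the 28 members with counts in both groups, 9 were higher, with a median log2 fold change of -0.26. None was called by edgeR or DESeq2, by which 0.1% (0.0441% higher) and 0.132% (0.0521% higher) of all genes were, and the median over all 34 was -0.16. That median was 0.10 without WT untreated 2 and -0.47 without Swhtr null untreated 2. Xirp1, lower in Swhtr null slices, was the only member with an unadjusted p under 0.05 in edgeR, against 2.72% of all genes higher and 2.64% lower (0.773 ± 0.384 CPM in Swhtr null and 1.63 ± 1.07 CPM in WT, SD, n = 4, log2 fold change -1.07, adjusted p = 0.903). Myh6 did not overlap between the genotypes, being lower in all 4 Swhtr null untreated libraries (1 to 3 counts each, against 3 to 14 in WT), as 1.41% of all genes did in this direction. At these counts its log2 fold change of -1.72 had a SE of 2.16.

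In treated slices all 34 members had a higher fitted level in Swhtr null than in WT, against 49.7% of all genes, by a median of 0.87. With limma and quality weights, 26 of the 34 members were higher, with a median of 0.30. Smpx, Ckm and Nppa passed the filter only through the Swhtr null treated libraries, so their direction carries no weight here either. With edgeR's filter by expression, all 21 members left were higher, with a median of 0.73. None was called by edgeR or DESeq2, by which 0.0921% (0.036% higher) and 0.156% (0.0561% higher) of all genes were. None was without overlap between the genotypes, against 1.7% of all genes higher and 2.36% lower. Without Swhtr null treated 2 and 3, 12 of the 28 members with counts in both groups were higher and the median was -0.31, and without WT treated 4 as well 15 of 28 were higher and it was 0.09. Leaving out Swhtr null treated 2 alone gave a median of 0.40, and leaving out WT treated 4 alone 1.36. At an unadjusted p under 0.05, 4 members were higher (Ldb3, Myoz2, Csrp3 and Ankrd1) and none was lower, against 2.88% and 3.36% of all genes. This count was 11 without WT treated 4, 10 without Swhtr null treated 4, 6 without Swhtr null treated 1 or 3, 2 without WT untreated 3, Swhtr null untreated 4 or any 1 of WT treated 1 to 3, and 1 higher with 1 lower without Swhtr null treated 2. Ldb3 was at 4.03 ± 1.05 CPM in Swhtr null and 2.44 ± 0.366 CPM in WT treated slices (SD, n = 4, log2 fold change 0.72, SE 0.26, edgeR adjusted p = 0.767).

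The response to treatment was also compared between the genotypes as an interaction. The Swhtr null response exceeded that of WT for 29 of the 34 members, against 50.2% of all genes, by a median of 1.07 on the log2 scale. For 6 of these members a group was at 0 counts, and among the other 28 the difference was above 0 for 25, again with a median of 1.07. With limma and quality weights it was above 0 for 22 of the 34 members, with a median of 0.34. With edgeR's filter by expression it was above 0 for 18 of the 21 members left, with a median of 0.92. In all, 0 members were called by edgeR or DESeq2, as were 0% of all genes. At an unadjusted p under 0.05, 3 members (Ldb3, Xirp1 and Nexn) had a larger response in Swhtr null slices and 0 a smaller one, against 3.26% and 3.63% of all genes. With 1 library left out this count ran from 1 (without WT untreated 1 or 2 or Swhtr null treated 1) to 5 (without WT untreated 3 or 4, Swhtr null untreated 2 or WT treated 4). For Ldb3 the difference was 1.11 (SE 0.38, edgeR adjusted p = 0.715), for Xirp1 1.60 (SE 0.64, adjusted p = 0.715) and for Myh6 2.79 (SE 2.35, adjusted p = 0.795). Without Swhtr null treated 2 and 3, the difference was above 0 for 10 of the 26 members with counts in every group (median -0.28), and over all tested it had a median of 0.53 without Swhtr null treated 2 alone. A difference in response between the genotypes was thus not shown for any member.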

How the data were processed

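RNA from 16 heart slice cultures was sequenced as paired-end reads of 150 bp. The authors aligned the reads with STAR to mm10 (GRCm38) and deposited raw counts per Ensembl gene made with GenomicAlignments. The study's methods name ribosomal RNA depletion and ScriptSeq libraries, the labels a TruSeq kit for mRNA, and no source used here gives the strand setting. The counts hold no row for Swhtr, so genotypes could not be checked.

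All 16 count columns were used in R 4.3.3. Genes whose counts summed to 10 or more were scaled by TMM and fitted with edgeR 4.0.16 (4 group means, 12 residual degrees of freedom, robust quasi-likelihood test), with p-values adjusted over all genes tested by Benjamini and Hochberg. The procedure was run on simulated counts, with changes placed only in well counted genes and no library standing apart. That check does not cover members with few counts. CPM is counts per 1000000 of the TMM-scaled library size, lengths are merged exons of GENCODE M21, and errors are SD over 4 libraries. Where a group was at 0, folds are lower bounds of the other group's pooled level against 3 counts over the group. They cover counting error of the group at 0 only, not the spread between libraries. The lowest chi-square per degree of freedom between replicates was 7.08, so no library was counted as a duplicate.

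Same-numbered Swhtr null untreated and treated libraries had correlated deviations (0.15, 0.59, 0.26 and 0.40), and their numbers were taken as pairs from the data. However, untreated 1 correlated more with treated 4 (0.21) than with treated 1. Treated 3 correlated more with untreated 4 (0.33) than with untreated 3. Same-numbered untreated libraries of WT and Swhtr null, which are different mice, gave 0.10, 0.38, 0.01 and 0.37. The labels do not state the pairs, and the fits with pairs rest on this choice.

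The members, gene lists and tests were chosen with earlier results of these data known. Values per library are given for members called by edgeR or DESeq2, the first gene of each role, Myl2, Tnnt2, Actc1 and Nppa, the 5 smallest p-values of each response and the 3 highest levels per kb. From other lists called genes and up to 3 of highest level are named. Genes of the smooth muscle and of the conduction and atrial lists were also named by where they were highest. Smtn, Myh10, Actn1, Hcn4 and Cacna2d2 are among these. Library values of Myl7, Myom1 and Nppb, and Sln, Bmp10, Myh11, Acta1 and Acta2, were singled out after seeing them. Alternatives were DESeq2 1.42.0, limma 3.58.1 with quality weights, other scaling, filters and fits, replicate pairs and leaving libraries out.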

Additional observations from a re-analysis of the deposited data

Results flagged for a closer look

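Of 76 groups of 4 libraries examined (18 members and the mean of all 34, by Dixon's ratio with a critical value of 0.829 on log2 CPM), 5 held a library far from the other 3. Chance gives about 1 in 20 where levels vary freely. That rate does not hold for groups with 0 counts in most or all libraries, which were included and in which libraries at 0 differ by their depth only. Actc1 was at 4.57 CPM in WT untreated 2, against 0.674 to 0.892 CPM in the other WT untreated libraries. Cryab was at 101 CPM in the same library, against 39.6 to 45.4 CPM, and at 74.0 CPM in Swhtr null untreated 2, against 33.9 to 38.8 CPM. Nppa was at 0.169 CPM in WT treated 4 and at 3.88 CPM in Swhtr null treated 2, and at 0 in the other 3 libraries of each group. No chance rate can be given for these Nppa flags.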

How the results depend on the processing

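The number of members called in Swhtr null slices after treatment (1, Ldb3) was not stable. It was 8 with DESeq2, 6 with the replicate block, 2 with edgeR's filter by expression (21 members tested), and 0 with limma, with DESeq2's size factors and with the libraries compared only. Leaving out 1 library at a time gave 0 to 2 members, and leaving out Swhtr null treated 2 and 3, with or without WT treated 4, gave 0. The cause was not tested. In the other comparisons no alternative called a member. Over all genes, the calls in Swhtr null slices were 155 as reported, 464 with DESeq2, 616 with the replicate block, 544 with no fold threshold, 62 with the libraries compared only, and 22 to 575 with 1 library left out (22 without Swhtr null untreated 4, 575 without Swhtr null untreated 2, 49 without Swhtr null untreated 3, and 77, 80 and 300 without Swhtr null treated 1, 2 and 3), and 233 and 263 without the libraries that stood apart, alternatives chosen after seeing the data. The block called 19 genes for WT and 52 for the interaction, against 0 each, and it changed no other member call. Whether replicate numbers pair the WT libraries is not known (correlations of same-numbered libraries -0.11, -0.08, 0.17 and 0.32). DESeq2 called 9 and limma 5 genes for WT. Without Swhtr null treated 2 and 3, the Swhtr null response was below 0 for 7 members with counts in both groups (Ttn -0.54, Actn2 -0.84, Tnni3 -0.95, Myl7 -2.18 with 1 treated count, Myoz2 -0.29, Tcap -0.35 and Csrp3 -0.59), with the same values without WT treated 4 as well. Myh7, Xirp2 and Mb had 0 treated counts left and Ckmt2 none at all, so these gave no value. With limma the response of Nppa was -0.52. In WT slices, Ldb3 ran from -0.26 to 0.21 with 1 library left out (above 0 without WT untreated 2), and Xirp1 from -0.48 to 0.13 (above 0 without WT untreated 1 or 2, 0.13 and 0.11) and was at 0.19 with limma. The Swhtr null call of Ldb3 ended with limma (adjusted p = 0.0853), DESeq2's size factors (0.0520), the non-robust fit (0.0567) and the libraries compared only (0.0956). Counts under about 10 in most libraries limit Myh7, Smpx, Ckm, Ckmt2, Nppa, Nppb, Xirp2 and Lmod2. The same holds for Myom2, Csrp3, Myoz2, Tcap, Nebl, Actn2, Mb and Myl7. Myh6 held 1 to 3 counts in each Swhtr null untreated library, which limits its Swhtr null response.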
